A study of Drosophila melanogaster with 3 samples.

Results

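The results below describe where GFP-tagged CG4424, a zinc finger protein of Drosophila melanogaster, was mapped at schnurri (shn) and at 9 other genes of the Decapentaplegic (Dpp) pathway. The 10 genes were the ligand genes dpp and gbb, the receptor genes tkv, sax and put, the Smad genes Mad and Med, and the nuclear or inhibitory genes shn, brk and Dad. Each was taken with 5 kb on each side, as annotated on dm6. Gene shn was picked on measured values, namely its many summits, so its count is given as a description with no test. The other 9 are partners of shn in the pathway, taken with earlier results of these data known. Of 13945 protein-coding genes, these are 10, and of 6420 summits in the authors' optimal set, 41 fell in their windows, each in 1 window only.

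The study collected whole embryos of mixed sex, 0 to 16 h after laying, from 1 transgenic line that stably expresses CG4424 with GFP at its C terminus. Chromatin was sonicated to 200 to 800 bp and precipitated with an antibody against GFP, and 3 biological replicates were sequenced. All 3 belong to this 1 group, so no contrast between conditions can be drawn, and signal from the many tissues and stages of whole embryos is pooled. The deposited lists give regions, each with a summit (its highest point) and a signal value in the authors' unit, whose scale is not stated. The lists name only regions, so read depth is unknown. The optimal set holds the strongest regions of the list called on pooled reads, after the authors' threshold on reproducibility between replicates. The pooled list itself holds 29056 regions, down to weak ones. The replicate lists hold 22198, 30000 and 29796 regions for replicates 1, 2 and 3. Ranks are by signal within a list, with rank 1 the strongest, since signal values of different lists are not on 1 scale.

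Dpp is a secreted ligand of the bone morphogenetic protein family. In the fly embryo it patterns the dorsal ectoderm and the mesoderm, and later it sets growth and pattern in the wing. Ligand binding brings type I and type II receptors together, the activated type I receptor phosphorylates Mad, and Mad enters the nucleus with Medea, the product of Med. Schnurri, a large zinc finger protein, joins Mad and Medea at silencer elements and represses brk, whose product in turn represses many Dpp targets, so that loss of Brinker opens these targets to expression. Dad encodes an inhibitory Smad that is itself switched on by the pathway and dampens it.

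The sequences at the strongest optimal summit of the members are shown where they could be given, to let the base composition and the few known sites be seen beside the values that follow. Each is the window of 50 bp on each side of the summit, 101 bp in all, on the forward strand of dm6, read from the RefSeq sequence of that assembly. Capitals mark a GATA site (GATAA, on either strand) or ATACTA. Outside the member windows, this hexamer was more frequent at summits than 500 bp away. Windows with no capitals held none of the sequences searched. The windows lie at chr2L:3153365-3153465 (Mad), chr2L:5238357-5238457 (tkv), chr3R:14624174-14624274 (put), chr2L:2433588-2433688 (dpp), chrX:7307137-7307237 (brk) and chr3R:17065090-17065190 (Dad).
Mad: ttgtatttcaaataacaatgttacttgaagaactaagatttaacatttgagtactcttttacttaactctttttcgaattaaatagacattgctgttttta
tkv: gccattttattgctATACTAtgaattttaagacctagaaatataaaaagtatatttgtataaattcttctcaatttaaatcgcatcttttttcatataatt
put: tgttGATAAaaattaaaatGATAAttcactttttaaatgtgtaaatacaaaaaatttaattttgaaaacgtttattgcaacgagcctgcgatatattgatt
dpp: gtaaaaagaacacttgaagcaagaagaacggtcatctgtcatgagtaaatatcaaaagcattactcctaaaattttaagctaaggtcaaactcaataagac
brk: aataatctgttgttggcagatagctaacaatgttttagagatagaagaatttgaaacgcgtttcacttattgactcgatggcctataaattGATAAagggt
Dad: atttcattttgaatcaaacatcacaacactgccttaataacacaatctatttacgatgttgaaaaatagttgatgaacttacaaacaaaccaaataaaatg

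Gene shn (FBgn0003396) lies on the forward strand at chr2R:11159086-11217394, and 81.1% of its 58309 bp is intronic in all 6 annotated transcripts. It has 5 distinct starts, at 0, 14717, 24138, 39190 and 45543 bp from the first. All 15 optimal summits of shn lay inside its own introns, between 17255 and 48224 bp from the first start, and none fell in the 5-kb flanks. None lay within 500 bp of a shn start, and the closest was 1007 bp from one. The sites were therefore internal to the gene and away from its annotated promoters.

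The summits were unevenly spread over the shn introns. The first intron is the longest, at 14589 bp, and held no optimal summit. The second intron, 8418 bp long, held 5, the third (7059 bp) held 2, the fourth (7879 bp) held 4, the fifth (5627 bp) held 3 and the sixth (3416 bp) held 1. The other 5 introns, all near the 3' end and only 61 to 68 bp long, held none. Neighbouring summits were a median of 2214 bp apart, with gaps from 199 to 6140 bp, and 3 of the 14 gaps were under 500 bp. When overlapping regions were merged, 12 separate regions remained.

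**Figure D1:**
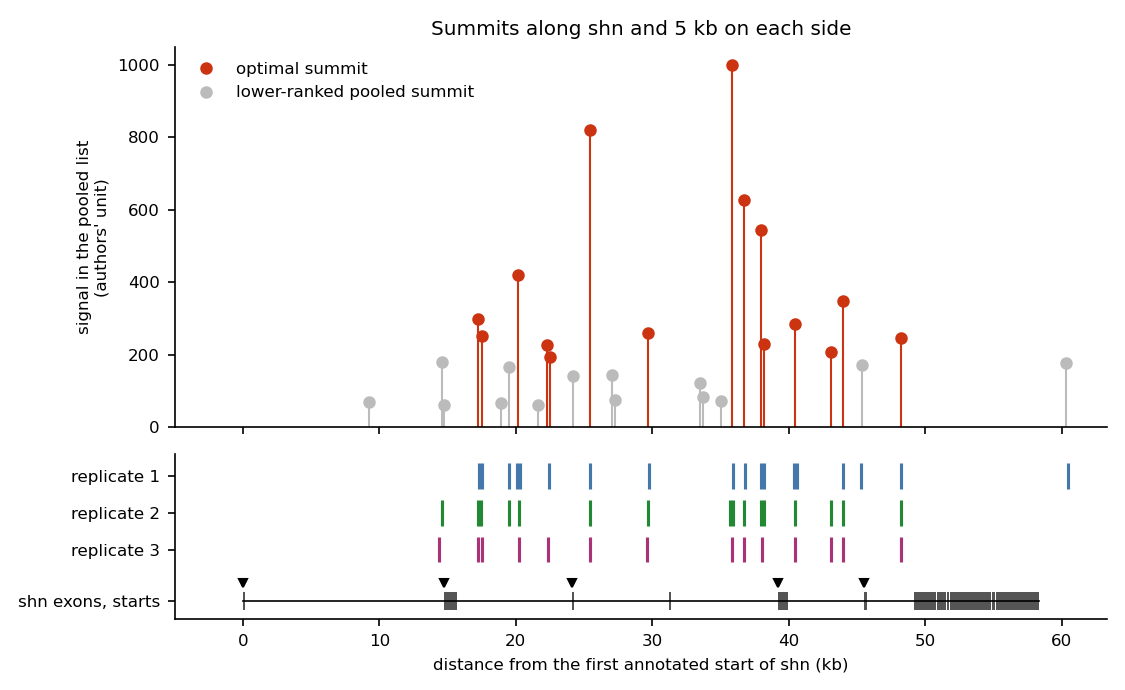
Upper panel: signal of each optimal summit (red) and of each lower-ranked pooled summit (grey) against the distance from the first start of shn in kb. Lower panel: summits among the 6420 strongest regions of each replicate, above the exons (boxes) and annotated starts (triangles) of shn. All 15 optimal summits lie between 17255 and 48224 bp from the first start, and the tallest reaches 999.

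The strongest shn summit, at chr2R:11194896 in the fourth intron, had a pooled signal of 999 and rank 448. Its region held rank 330 in replicate 1, rank 797 in replicate 2 and rank 311 in replicate 3, a mean of 1.73% ± 0.833 from the top of the list (SD, n = 3). Replicate 2 thus placed it lower than replicates 1 and 3, though still near the top of its list. The next 3 summits by signal were at chr2R:11184528 in the third intron (821, rank 643) and at chr2R:11195821 and chr2R:11197066 in the fourth (627 and 543). The region at chr2R:11184528 held rank 1170, 521 and 558 in replicates 1, 2 and 3. Thus 3 of the 4 strongest lay within the fourth intron, which lies just upstream of the fourth start.

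The optimal summit closest to a shn start, at chr2R:11197269, lay 1007 bp upstream of the fourth start and had a signal of 231 (rank 4877). The replicate summit closest to it held rank 4341, 3156 and 7943 in replicates 1, 2 and 3, so in replicate 3 it fell outside the strongest 6420. It lay on the shoulder of the stronger summit at chr2R:11197066, whose region it overlaps. The weakest, at chr2R:11181607 in the second intron, had a signal of 193 (rank 6169), and the closest replicate summits held ranks 5059, 7844 and 8792. The median signal over the 15 was 286, against 318 over all optimal summits, and 6 of the 15 were among the 3210 strongest of the optimal set.

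Weaker regions were found at 3 of the 5 shn starts. Pooled regions with no optimal region across them are called lower-ranked here, and 14 of these lay in the shn window. Of these, 4 lay within 500 bp of a shn start: 2 at the second start (signals 181 and 61.0), 1 at the third (141) and 1 at the fifth (172). The lower-ranked summit with signal 177 in the downstream flank lay at the starts of CG9084 and Syx6, a SNARE protein gene, and not at shn. The first start and the fourth had no optimal or lower-ranked summit within 500 bp.

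Gene shn ranked 4 of 13945 protein-coding genes by optimal summits in the window, with 3 other genes tied at 15 (tna, sbb and tara are these), and 7 genes including shn had 15 or more. The highest count was 28, and the median over all genes was 1.0. The shn window is 68.3 kb long, against a median of 12.2 kb over genes. Among the 461 genes with windows of 50 kb or more, the median count was 2.00 and the 90th percentile 8, and 6 of these genes had 15 or more. Per 10 kb, shn had 2.20 optimal summits, against a median of 0.609 over genes, and 7.64% of genes were as dense or denser. In the shn window 44.1% of pooled summits were optimal, against 22.1% of all pooled summits. The 5 genes whose count was closest to shn were tna, sbb and tara (15 each), ush (16) and rdx (14), with windows of 51.0, 89.1, 44.7, 74.3 and 75.0 kb.

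**Figure D2:**
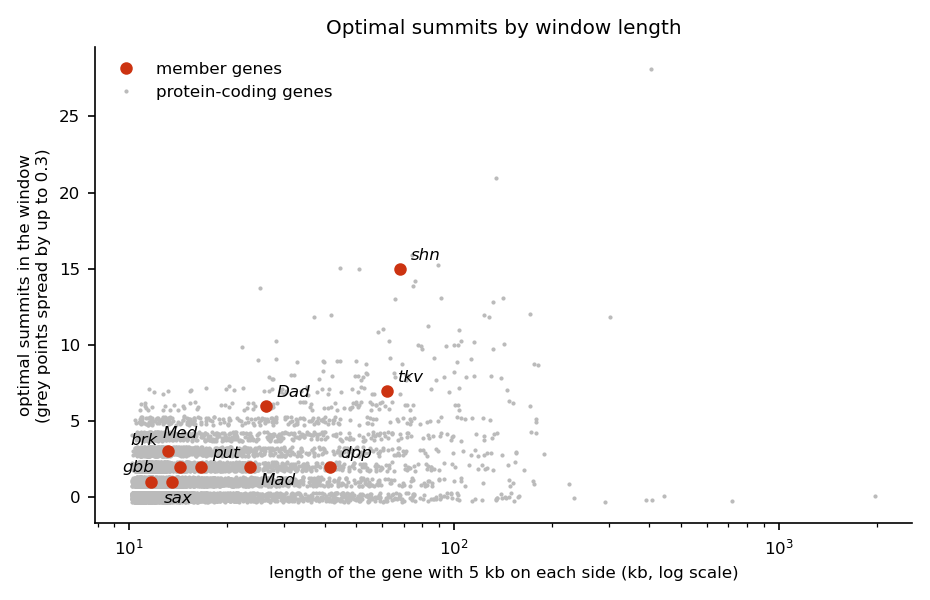
Optimal summits in the gene and 5 kb on each side against the length of that window in kb (log scale), with member genes in red and all protein-coding genes in grey, spread slightly up and down. With 15 summits in 68.3 kb, shn lies near the top for its length, tkv has 7 and Dad 6, and the other 7 members have 1 to 3.

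In the 6420 strongest regions of each replicate, the shn window held 18, 16 and 14 summits in replicates 1, 2 and 3, a mean of 16.0 ± 2.00 (SD, n = 3). The count in each replicate was thus within 3 of that in the optimal set. In the full lists, weak regions included, the window held 27, 39 and 40 summits, and the shortest list was that of replicate 1. Of the 15 optimal regions, 12 overlapped one of the strongest regions in every replicate, and all 15 overlapped a region of each full list. In replicate 3, the region at chr2R:11197269 was counted only through that of its stronger neighbour, and its closest summit held rank 7943. Since the optimal regions were called on these libraries, the overlap is not an independent check.

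All 10 members had at least 1 optimal summit in their windows. Over all protein-coding genes, 56.5% did so, and the median count was 2.00 over the members against 1.0 over genes. The windows include the flanks, and in 4 of the 10 genes (Med, sax, gbb and brk) every optimal summit lay in a flank. With no flank, 6 of 10 members (shn, Mad, tkv, put, dpp and Dad) held a summit, against 14.1% of genes. With a flank of 2 kb the figures were 9 of 10 against 42.1%, and with 10 kb they were 10 of 10 against 70.2%. The list was chosen with results known. Of the 461 genes with windows of 50 kb or more, 342 (74.2%) had an optimal summit. Only shn and tkv among the members have such windows, and the part of length in the members' share was not tested.

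**Figure D3:**
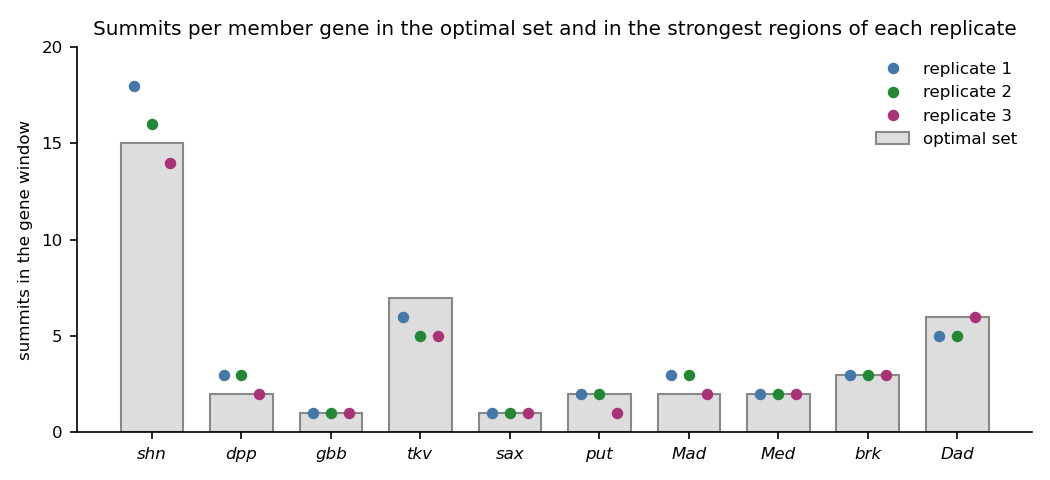
Optimal summits per member window (grey bars) and summits among the 6420 strongest regions of each replicate (points, coloured by replicate), on a count axis from 0. The points lie within 3 of the bar for shn and within 2 for the other 9 members, and the shn counts of 14 to 18 lie above those of all other members.

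Only tkv and put had an optimal summit within 500 bp of an own start, 2 of 10 members against 24.9% of genes. Both summits were weak, with ranks 5324 (tkv) and 5662 (put). When optimal regions were kept only if the strongest regions of both remaining replicates overlapped them, 0, 0 and 1 members had a summit at a start without replicate 1, 2 and 3, against 21%, 20.8% and 21.6% of genes. Within 1000 bp of a start, 5 of 10 members had a summit (tkv, put, Mad, brk and Dad), against 28.6% of genes. Taking any pooled summit, weak ones included, 10 of 10 had one within 500 bp of a start, against 50.5% of genes. Pooled summits near the members' own starts were thus present but mostly below the optimal threshold. Several lay closer to a neighbour's start. Such were the lower-ranked summits at gbb (10 bp from a ytr start), Mad (79 bp from gkt) and dpp (93 bp from lncRNA:CR44912). Others lay at sax (273 and 43 bp from Nop17l) and Med (148 bp from CycG).

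The ligand gene dpp (FBgn0000490, chr2L:2428372-2459823) had 2 optimal summits. The stronger, at chr2L:2433638, lay 5266 bp into the gene in its first intron, which is 21142 bp long, and had a signal of 470 (rank 1806). Its region held rank 1692, 1884 and 1888 in replicates 1, 2 and 3; the lowest rank was 1.12 times the highest. The other, at chr2L:2426682, lay 1690 bp upstream of the first start in intergenic DNA, with a signal of 271 and replicate ranks of 3608, 3533 and 5778. Counts among the strongest regions of the replicates were 3, 3 and 2. At 0.482 per 10 kb, dpp was the sparsest member, and 11 lower-ranked summits were scattered over its window.

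The second ligand gene, gbb (FBgn0024234, chr2R:23851562-23853247), encodes Glass bottom boat, which acts with Dpp and as a signal from muscle to motor neuron. Its single optimal summit, at chr2R:23850400, was the strongest of all 41, with a signal of 2194 and rank 67. The region held rank 58, 76 and 66 in replicates 1, 2 and 3, and its signal in those lists was 606, 891 and 702. It lay 1162 bp upstream of gbb, but within 500 bp of the starts of eIF6, a ribosome assembly and translation factor gene, and of the antisense RNA asRNA:CR45928. The strongest site of the group therefore stood at a neighbour's start, inside the span of another gene, ytr. At the gbb start itself only 1 lower-ranked summit lay within 500 bp.

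The type I receptor gene tkv (FBgn0003716, chr2L:5219000-5271384, reverse strand) had 7 optimal summits, the most after shn. All 7 lay within the gene, between its first start and the fourth, and 5 of them in the first intron of 27126 bp. The 3 strongest were at chr2L:5238407 (signal 457, rank 1898), chr2L:5245818 (342) and chr2L:5261443 (336). The first of these lay 1045 bp upstream of the fourth start, and its region held rank 2777, 1675 and 1922 in replicates 1, 2 and 3. The summit at chr2L:5242699 lay 79 bp upstream of the third start and at the first base of the pseudogene CR14033. It had a signal of 216, and its ranks were 8839, 3397 and 7916, so that only replicate 2 placed it among its strongest 6420. The fifth intron, 14685 bp long and downstream of the fourth start, held 7 lower-ranked summits and no optimal one. Counts among the strongest regions were 6, 5 and 5.

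The other receptor genes had few sites. Gene sax (FBgn0003317, chr2R:7806484-7810067) encodes the type I receptor that pairs mainly with Gbb. Its single optimal summit, at chr2R:7812395 with a signal of 576, lay 2328 bp past the 3' end of sax, at the starts of puml and TTLL12. The region held rank 1300, 1179 and 1432 in replicates 1, 2 and 3. Around the sax starts lay 3 lower-ranked summits, with signals of 91.2, 110 and 120. Those of 110 and 120 lay closer to a Nop17l start (273 and 43 bp) than to a sax start (372 and 56 bp). Gene put (FBgn0003169, chr3R:14619030-14625703, reverse strand) encodes the type II receptor Punt. Its summit at chr3R:14624224, in the first intron 1479 bp from the start, had a signal of 311 and replicate ranks of 3578, 3097 and 3617. Its other summit, 5 bp from the start of put and in the promoter it shares with the histone gene His4r, had a signal of 206. Ranks there, by the highest overlapping region, were 5383 and 4690 in replicates 1 and 2 and 10757 in replicate 3, so the start site was not among the strongest regions of replicate 3.

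Mad (FBgn0011648, chr2L:3146056-3159643, reverse strand), which encodes the Smad that the receptors phosphorylate, had 1 strong and 1 weak optimal summit. The strong one, at chr2L:3153415 in the first intron, had a signal of 1173 and rank 306, and lay 662 bp upstream of the second start of Mad. Its region held rank 341, 254 and 429 in replicates 1, 2 and 3, with signals of 292, 541 and 331. This was the highest signal of any optimal summit inside a member gene. The weak one, at chr2L:3149463, had a signal of 188 and ranks of 5179, 9334 and 5354, so replicate 2 did not place it among its strongest. Counts among the strongest regions were 3, 3 and 2.

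Med (FBgn0288966, chr3R:31611046-31615375), which encodes the co-Smad Medea, had both optimal summits outside the gene. The summit at chr3R:31616180 was the second strongest of the 41, with a signal of 1858 and rank 100, and its region held rank 105, 103 and 91 in the 3 replicates. It lay 20 bp upstream of Mnat9, an acetyltransferase gene, and within 500 bp of the start of CG1792, past the 3' end of Med. The summit at chr3R:31609770 had a signal of 188, with ranks of 6001, 5461 and 5274. It lay inside CycG, the cyclin G gene, 45 bp downstream of an annotated CycG start. At the Med start there were 2 lower-ranked summits, with signals of 85.0 and 62.8. That of 85.0 lay inside CycG, 148 bp from a CycG start and 216 bp from the Med start.

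The repressor gene brk (FBgn0024250, chrX:7307939-7311132), the gene that Schnurri silences, had 3 optimal summits, all upstream and within 2 kb of its single start. They lay 1984, 752 and 545 bp upstream, inside introns of CG1677 and lncRNA:CR44357, genes whose spans also contain brk. The middle one, at chrX:7307187, had a signal of 1101 and rank 356, and its region held rank 252, 673 and 226 in replicates 1, 2 and 3. The summit at chrX:7307394 lay 207 bp from it, with a signal of 407, and its closest replicate summits held ranks 4769, 2380 and 1327. The third, at chrX:7305955, had a signal of 383 and ranks of 2390, 2460 and 3451. All 3 replicates had exactly 3 summits among their strongest regions in this window. At 2.27 per 10 kb, brk was as dense as Dad.

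Dad (FBgn0020493, chr3R:17054007-17070408), the inhibitory Smad gene, had 6 optimal summits, of which 4 lay in its introns. The strongest, at chr3R:17065140, lay 11133 bp from the first start in the fifth intron, with a signal of 883 and rank 558, and its region held rank 1116, 446 and 601 in replicates 1, 2 and 3. The next, at chr3R:17060458 in the third intron, had a signal of 420 and ranks of 2483, 1817 and 2578. The third, at chr3R:17053014, lay 993 bp upstream of the first start, with a signal of 392 and ranks of 3019, 1844 and 3273. The remaining 3 had signals of 200 to 266, and the one of 266 lay in the downstream flank at the start of the mitochondrial ribosomal protein gene mRpS11. Counts among the strongest regions were 5, 5 and 6.

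**Figure D4:**
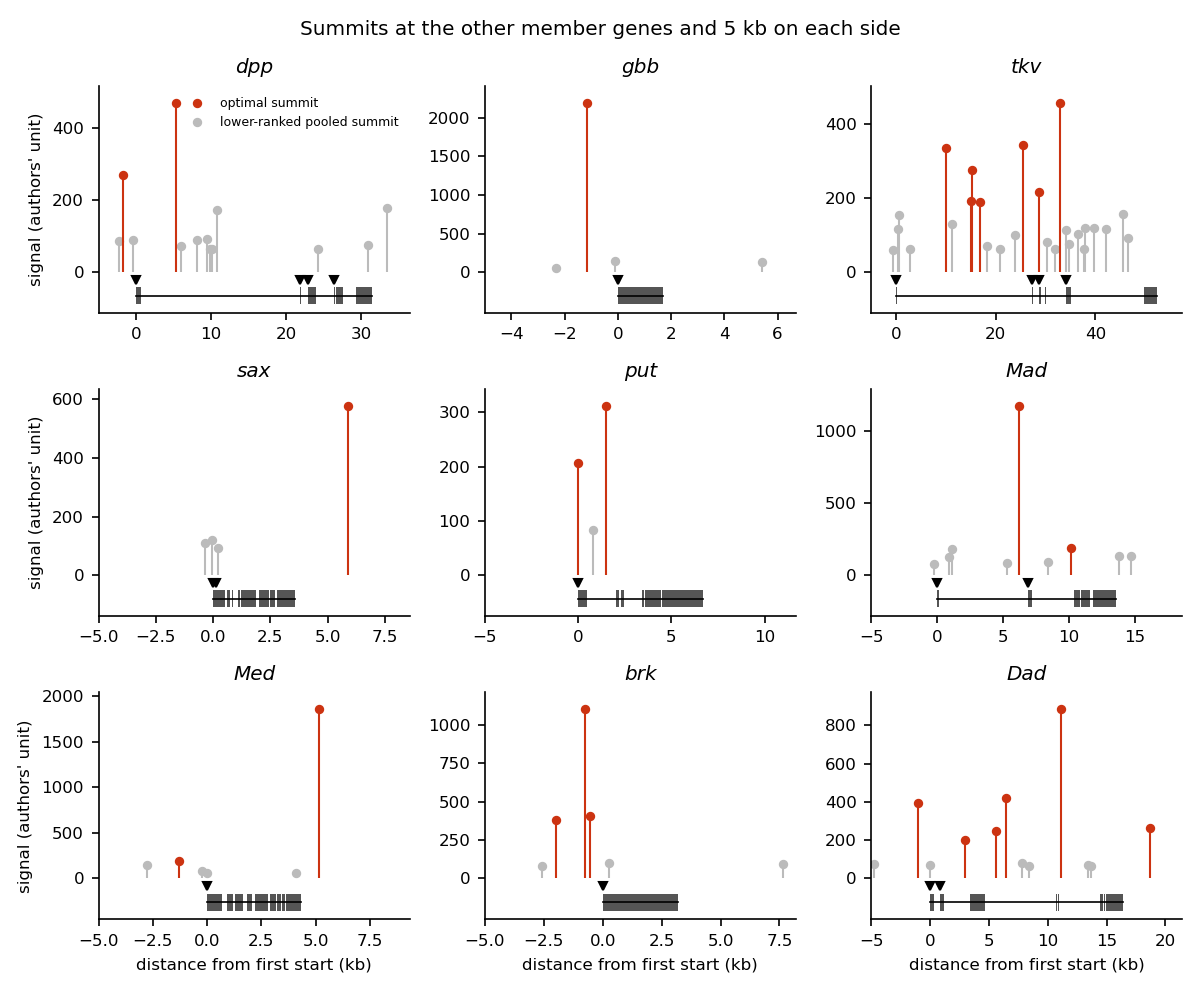
Signal of optimal summits (red) and lower-ranked pooled summits (grey) against the distance from the first start in kb for the 9 members other than shn, with exons (boxes) and starts (triangles) below and a separate signal axis in each panel. The tall sites of gbb (2194) and Med (1858) lie outside those genes, at starts of neighbours, while those of Mad (1173) and Dad (883) lie in introns.

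By place, the 41 sites were mostly intronic. Introns of any gene held 32 of 41 (78.0%), against 35.0% of all optimal summits. The 3 brk sites among these lay upstream of brk, in introns of CG1677 and lncRNA:CR44357. Promoter windows, within 500 bp of any annotated start, held 7 of 41 (17.1%), against 46.8% of all. The remaining 2 were intergenic, and no member summit fell in an exon outside a promoter window. The choice of shn bears on this share. Among the other 9 members, 17 of 26 (65.4%), the 3 of brk included, were intronic and 7 of 26 (26.9%) were in promoter windows. The part of gene length in it was not tested: of the 1447 optimal summits in windows of 50 kb or more, 65.7% were intronic and 26.3% were in promoter windows. Of the 7 promoter sites, 5 were at starts of other genes alone, 1 each at gbb, sax and Dad and 2 at Med.

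The members' sites were called by the 3 replicates about as often as other optimal sites. Of the 41, 32 (78.0%) overlapped a region among the strongest 6420 in each of the 3 replicates, against 76.2% of all optimal regions. When only the closest replicate summit was taken, 30 of the 41 were among the strongest 6420 in each replicate. All 41 were overlapped by a region in every full replicate list, against 99.2% of all. Between pairs of replicates, Spearman's rho of the ranks over the 41 sites was 0.893, 0.877 and 0.888, given as a description, since the sites share libraries and close neighbours share a region. The median signal was 311 for the members and 318 for all optimal summits, and 20 of the 41 were among the 3210 strongest. Just inside the optimal threshold lay the Med summit of 188, the Mad summit of 188 and a tkv summit of 189. Just outside lay regions of 182 in Mad, 181 at the second shn start and 179 in the downstream flank of dpp. Near the edges of the windows, the farthest summit inside was 2328 bp from its gene (sax). The nearest outside were 5169 bp from shn (signal 923), 5416 bp from brk (312) and 5561 bp from gbb (693).

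**Figure D5:**
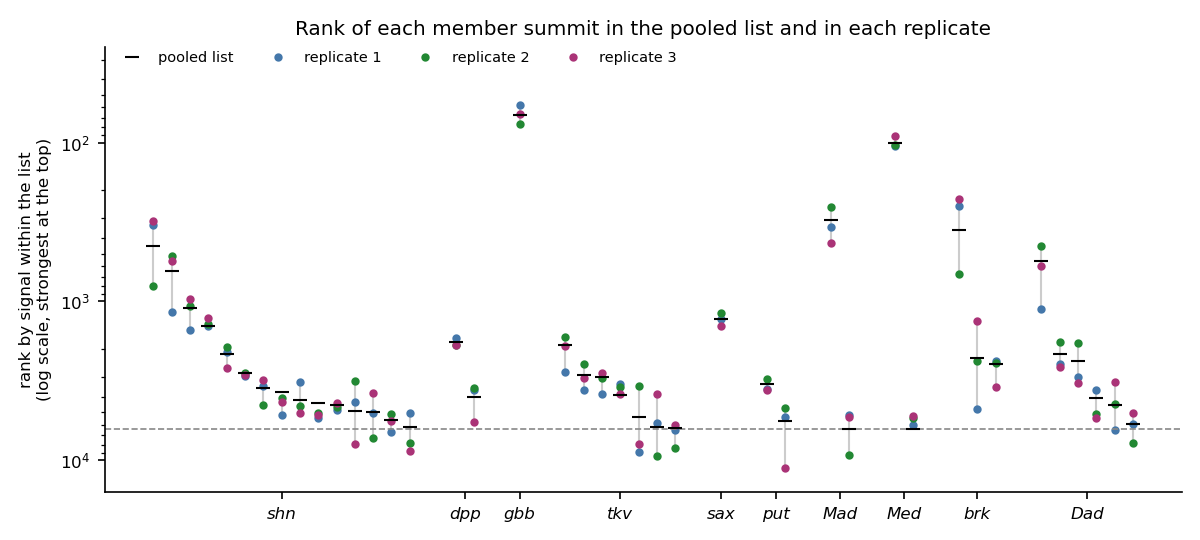
Rank by signal of each of the 41 member summits in the pooled list (black bars) and of the closest overlapping summit in each replicate (points), on a log axis with the strongest at the top and the optimal threshold at rank 6420 dashed. Strong sites of gbb and Med have nearly the same rank in the 3 replicates, while sites near the threshold, such as those of put and Mad, fall on either side of it.

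Sequences known from the pathway were rare at the members' summits, as they were at all optimal summits. In the windows of 101 bp around the 41 summits, the Mad site GCCGNCGC was found in 0, against 25 of 6420 over all (0.389%), and the silencer element joined by Mad, Medea and Schnurri in 0 of 41 and 0 of 6420. The Brinker site, searched as GGCGCC and also as GGCGCT, was found in 1, at the shn summit closest to a start, against 3.93% of all windows. In windows 500 bp from the member summits, the Mad site and the silencer element were found in 0 of 41 and the Brinker site in 4 (9.76%). The median GC content was 32.7% for the members, 28.7% for shn and 31.7% for all optimal windows, and its part in these counts was not tested. All sequences were searched on both strands, and an absent match says only that these letters are not in the window.

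The other sites searched were found in 0 to 12 of the 41 windows. The GATA site GATAA was found in 12 of 41 windows (29.3%), against 24.0% of all and 17.1% of windows 500 bp from the member summits. Among them were the windows of gbb, sax and the strongest of brk, and 4 of the 15 of shn. The homeodomain site TAATTA was found in 1 of 41 against 10.4% of all, and in 2 of the windows 500 bp away. The GAGA element GAGAG was found in 2 against 9.17% of all, and in 7 of the windows 500 bp away (17.1%). The Zelda site CAGGTAG was found in 0 against 0.436% of all, and in 0 of the windows 500 bp away. The palindrome TATCGATA, bound by DREF and BEAF-32, was found in 1, at the third tkv start, against 1.96% of all, and in 0 of the windows 500 bp away. For the 5 hexamers with the highest ratio of summit to flanking windows outside the members, some of which overlap in letters, CTAGTA was found in 1 member window against 2.90% of all. ATACTA was found in 4 against 7.82%, ATATTA in 7 against 21.4%, TACTAA in 1 against 7.79%, and CTAATA in 0 against 8.13%. At least 1 of the 5 stood in 10 of 41 member windows (24.4%), in 34.9% of all optimal windows and in 12.2% of windows 500 bp from the member summits. The strongest windows of Mad, dpp and Dad shown above held none of these sequences.

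The same count was made for 46 other genes of the pathway, in lists drawn up by role. Of these, 30 (65.2%) had at least 1 optimal summit, against 56.5% of all protein-coding genes, and the median count was 2.00 against 1.0. Of the 5 other ligand genes, only myo had one, with a signal of 194. Of the other receptor genes, babo (best signal 654, at the starts of neighbours) and wit (479, intronic) both had one. Smox, the Smad of the activin branch, had 2, the stronger at the start of CG17982 (614). Among 10 extracellular modulators, 7 had one, led by cv (1506, intergenic), a helper of Dpp transport, and magu (1225, at its own start).

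Among 7 intracellular modulators 6 (85.7%) had an optimal summit, against 56.5% of all protein-coding genes. The highest signals were those of gro, the Groucho corepressor gene (1418, at its own start), and nej, the CBP acetyltransferase gene (885, at the start of lncRNA:CR42657). Among 21 targets of the pathway in embryo and wing, 13 (61.9%) had one, near the 56.5% of all genes. The highest was at ush, a Dpp target that encodes a cofactor of GATA factors, with 16 summits and a signal of 5325 at chr2L:481056 in an intron. The next was at bam, a germline differentiation gene that Dpp represses, where the summit of 1597 lay 7 bp from the start of the ribosomal protein gene RpS27 and not at bam. Among those with 0 optimal summits were pnr, salm, salr and mid, whose windows held 8, 7, 6 and 3 lower-ranked summits. The windows of Doc2 and Doc3 shared the summit at chr3L:9011953 (signal 651), the only optimal one of Doc3, and it was counted for both.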

How the data were processed

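Anti-GFP chromatin immunoprecipitation was done on 3 biological replicates of 1 line, per the labels. The authors called regions per replicate and on pooled reads against a control, and, per the deposited notes, cut the optimal set by irreproducible discovery rate. The deposited signal values come from the authors' caller, and their scale is not stated. The caller and aligner were not given in the sources used here. Only the dm6 lists were used. All 6420 optimal regions are the strongest of the pooled list. Summits were counted in each gene with 5 kb on each side (Ensembl release 115; positions from 1). A promoter window was 500 bp on either side of any start, taken before exon, intron and intergenic. Lower-ranked regions were pooled regions that overlap no optimal region, by at least 1 bp. The members and lists were chosen with earlier results of these data known, so no test was made and counts stand beside the same count over all genes. Named were all members, their sites (the 3 strongest where more than 5; for shn the strongest, the weakest and the closest to a start), 2 genes of each list by signal, and the 5 genes closest to shn. The next 3 shn sites, the Dad site at mRpS11, the tkv site at a start, weaker regions, sites near thresholds and targets with no optimal summit were named after their values were seen. A site's replicate rank is that of the overlapping summit closest to it, unless stated. Work was done in Python 3.11.15 (numpy 2.4.6; pandas 2.3.3; matplotlib 3.10.9). Counting and overlaps were tested on simulated regions. No depth was given, so replicate spread is the only error.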

Additional observations from a re-analysis of the deposited data

How the results depend on the processing

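The alternatives were the flank, the 3210 strongest of the optimal set, each interval counted once, other windows and overlaps, and each replicate left out. Merging of overlapping regions and the closest replicate summit were added after the data were seen. Of 50 values recomputed for the main counts, 38 stayed within 1.5 times. Among the 3210 strongest, shn kept 6 summits, all in introns, and the members 20, with 0 members at a start. The share of all genes at a start was not computed for these 3210. With no flank, 6 of 10 members and 16 of 46 other pathway genes had an optimal summit, against 14.1% of all protein-coding genes. Within 1000 bp of a start, 5 of 10 members had one, against 28.6% of all genes. With 100 bp on each side, 19 of 41 windows held a GATA site (46.3%) and 18 a hexamer (43.9%). Over all optimal windows the shares were 41.4% and 53.6%. To leave out a replicate, optimal regions were kept only if the strongest regions of both remaining replicates overlapped them. The regions themselves were still called on all 3 replicates, so counts could only fall. This gave 12 to 14 summits for shn, 33 to 36 for all members, and 27 to 29 of 46 other pathway genes. All 10 members kept a summit, and 0 to 1 had one at a start, against 20.8% to 21.6% of genes. The share of all genes with any summit was not computed for this setting. Merging left 12 regions at shn and 36 in all. For single members other than shn, 62 of 81 values stayed within 1.5 times. The cause was not tested. No paired analysis was possible because there is 1 group.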

Other observations

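Replicates held regions among their strongest 6420 that overlap no optimal region. In the shn window there were 3 in replicate 1, 3 in replicate 2 and 1 in replicate 3. The strongest was in replicate 2, with its summit at chr2R:11194779, a signal of 322 and rank 745. It lies next to the strongest optimal summit of shn at chr2R:11194896, and the pooled region there held rank 7413 in the pooled list. In replicate 2, 2 regions of similar rank (745 and 797) thus stood where the pooled list has 1 strong region. The second shn start, at 154 bp from a lower-ranked summit of signal 181, was among the strongest regions in replicate 2 (rank 4833) and replicate 3 (rank 6034), but not in replicate 1 (rank 11474).

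Mad had such a region in its first intron in replicates 1 and 2 (ranks 5022 and 5256), and replicate 3 ranked it 9917. A second one, at chr2L:3144933 past the 3' end of Mad, held rank 6212 in replicate 2, against 15414 in replicate 1 and 23619 in replicate 3. Gene dpp had one 10708 bp into the gene in replicate 1 (rank 5740) and one past its 3' end in replicate 2 (rank 6297). Gene tkv had one in replicate 1 (rank 6218). None was found for Med, put, sax, gbb, brk or Dad in any of the 3 replicates.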
